A study of Mus musculus with 6 samples.

Results

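The interferon response genes described here are 44 genes of the interferon system, named by symbol and sorted into sensors of viral RNA, signalling genes and effectors. A gene was taken from the deposited table where a probe set carried its symbol and no other, and where a gene had several such probe sets the one with the highest mean over all arrays was used. This gave values for 40 of the 44 genes, among 19938 genes measured in the same way. Gbp2, Igtp and Isg15 share their probe sets with near copies and Ifi44 had no probe set named for it, so these 4 were not analysed here. The study compared cultured cells with and without the secreted neuronal protein LGI1. Immortalized neural precursor-like cells from the brains of C57BL/6J mouse embryos (embryonic day 13.5) were either wild type or carried a homozygous knock-out of Lgi1, and no further agent or allele is named for either genotype. RNA of 3 wild-type and 3 knock-out samples was hybridized to 1 Affymetrix whole-transcript array each, which gave a log2 signal for every probe set. The labels call the samples of a genotype biological replicates without saying from how many embryos or cell lines they come. The p-values thus rest on the spread among these samples alone, and that spread may be technical.

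Cells detect viral RNA with the RIG-I-like receptors and answer by secreting interferons. Type I interferons bind a receptor made of IFNAR1 and IFNAR2, and the kinases at that receptor bring about a complex with STAT2 and IRF9 that binds the interferon-stimulated response element (ISRE). Interferon gamma acts through a receptor of IFNGR1 and IFNGR2, and its target genes often carry the gamma-activated site (GAS). The genes switched on in this way block viral translation, degrade RNA, trap virions or load viral peptides onto MHC class I. Many of them keep a low level of expression in cells that no virus has entered.

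Promoter sequences from RefSeq (GRCm38.p6, 250 bases before to 50 bases after a transcription start) were found for 35 of the 44 genes. The ISRE core, searched as GAAA, any 2 bases and GAAA again, or as TTTC, any 2 bases and TTTC where it lies on the other strand, was present in a promoter of 16 of the 35 (45.7%), against 3.99% of all 27025 genes of the promoter table and 3.44% of its 32851 promoters. The GAS core TTCNNNGAA, which reads the same on both strands, was present for 13 of the 35 (37.1%), against 9.55% of all genes and 8.3% of all promoters. The genes were listed for their known part in this response, so a high share of ISRE cores describes the list and was not tested. The sequences that follow lie before the listed start of genes that differed between the genotypes. They are shown because the ISRE letters stand both before genes that were higher and before genes that were lower in knock-out cells, while the GAS windows shown belong to lower genes. Each is written 5′ to 3′ along the strand of the gene, with the motifs in capitals. The first 5 carry the ISRE core and the last pair the GAS core.
Ifit1 (chr19:34640770-34640828, plus strand, higher in knock-out cells): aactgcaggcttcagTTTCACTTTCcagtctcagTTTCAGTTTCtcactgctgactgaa
Ifit3 (chr19:34583363-34583392, plus strand, lower): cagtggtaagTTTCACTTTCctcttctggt
Stat2 (chr10:128270261-128270300, plus strand, higher): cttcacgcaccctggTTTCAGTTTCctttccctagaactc
Irgm1 (chr11:48871421-48871465, minus strand, higher): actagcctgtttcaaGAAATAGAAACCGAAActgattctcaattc
Gbp3 (chr3:142559992-142560021, plus strand, lower): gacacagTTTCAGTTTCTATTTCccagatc
Irf1 (chr11:53769909-53769947, plus strand, lower): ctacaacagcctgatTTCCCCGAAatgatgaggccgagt
Isg20 (chr7:78913336-78913374, plus strand, lower): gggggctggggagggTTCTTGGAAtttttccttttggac
The 2 ISRE cores of Ifit1 begin 104 and 85 bases before the start, and those of Ifit3 begin 156 and 122 bases before it, of which the first is shown. The Gbp3 and Irgm1 windows each hold 2 overlapping cores. The promoter table lists 2 starts for Gbp3 and Irf1 and 3 for Isg20, and the window shown belongs to 1 of them. The windows of Ifit3 and Gbp3 lie partly or wholly inside a longer gene model. Among genes with a value and a promoter, an ISRE core was found for 3 of the 9 that were higher in knock-out cells. It was found for 3 of the 9 that were lower (that of Ddx58 after its start) and 7 of the 13 that were not called. The higher genes Rtp4, Usp18 and Dhx58 had no promoter entry and are not in these counts. The GAS core was found for 1 of the 9 higher (Ifi35, after its start), 4 of the 9 lower and 7 of the 13 others. A match of letters is not evidence of a bound site.

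The interferon response genes differed between the genotypes in both directions. Of the 40 measured, knock-out cells had 12 at a higher and 9 at a lower level, and 19 did not pass (limma, Benjamini-Hochberg adjusted p under 0.05 over all genes). Among all 19938 genes 31.6% were called, with 14% higher and 17.6% lower, against 52.5% of the interferon response genes. Their median log2 difference (knock-out minus wild type) was +0.11, beside −0.012 for all genes, and the median size of the difference, without its sign, was 0.30 beside 0.11. At least 2-fold differences were called for 6 of the 40 (15%), 4 higher and 2 lower, against 5.32% of all genes. The knock-out arrays lay wholly above the wild-type arrays for 14 of the 40 and wholly below them for 10, where 18.5% and 23.7% of all genes did so. The genotypes were thus apart for 24 of the 40, beside 42.3% of all genes. Levels were read against 1194 genes for olfactory and vomeronasal receptors, whose place of action is the nose, and the 95th percentile of their means (5.68 on the log2 scale) served as the background level. For 29 of the 40 both genotype means lay above it, and 16 of these 29 were called (55.2%), close to the 47.6% of all genes above background in both genotypes. For 7 of the 40 both means lay under it, beside 8285 of all 19938 genes. The median sizes and the shares of 2-fold differences given above were not matched for level. In bulk samples such as these, fewer cells that express a gene and less RNA per cell cannot be told apart.

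**Figure D1:**
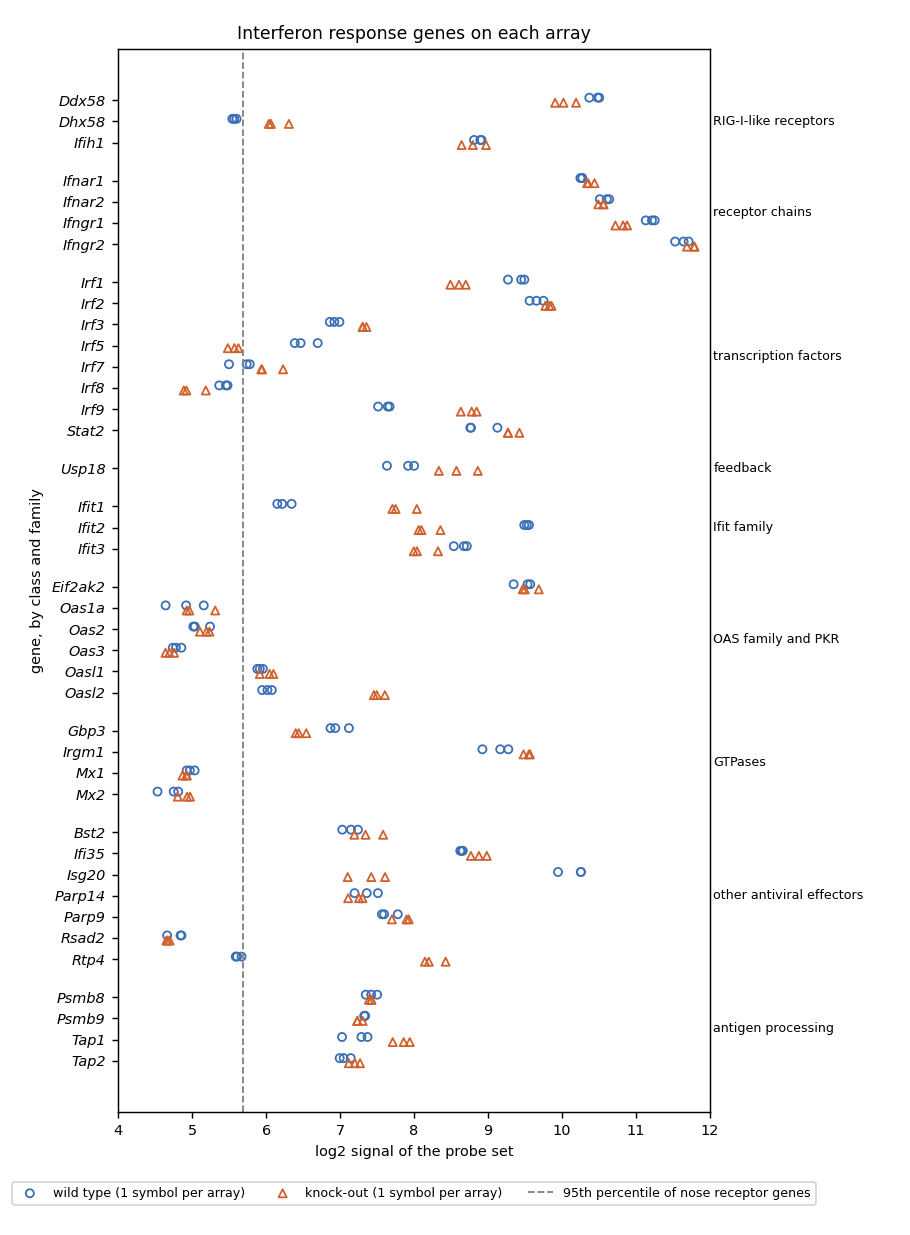
Log2 signal of the 40 measured interferon response genes (rows, by family) on each of the 3 wild-type arrays (circles) and 3 knock-out arrays (triangles), with the background level of 5.68 as a dashed line. Circles and triangles are widely separated for Rtp4, Ifit1, Oasl2 and Isg20 and overlap for Psmb8, Eif2ak2 and Ifnar2. Levels of different rows come from different probes and are not to be compared.

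Of the 3 RIG-I-like receptors 1 rose, 1 fell and 1 did not pass. Ddx58 encodes RIG-I, the sensor of RNA with a 5′ triphosphate, and its log2 signal was 10.50, 10.37 and 10.48 in wild-type cells and 10.19, 9.91 and 10.02 in knock-out cells. The knock-out arrays were all lower, and the gene fell by 0.41 on the log2 scale (SE 0.08, adjusted p = 0.0029). Dhx58 encodes LGP2, a regulator of the other sensors that lacks their signalling domains. Its signal was 5.54, 5.60 and 5.57 in wild-type and 6.31, 6.04 and 6.06 in knock-out cells. It rose by 0.57 (SE 0.08, adjusted p = 0.00031) from a wild-type mean under background, which limits how large this difference can appear. Ifih1 encodes MDA5, the sensor of long double-stranded RNA, and had means of 8.87 ± 0.0551 and 8.80 ± 0.165 (SD, n = 3 each). Its arrays overlapped, and the 95% confidence interval of the log2 difference ran from −0.26 to 0.12.

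All 4 receptor chains among the 44 genes were far above background in both genotypes. Ifnar1 and Ifnar2, the chains of the type I receptor, differed by +0.11 (95% confidence interval −0.02 to 0.24) and −0.05 (−0.19 to 0.09) and did not pass. Of the interferon gamma receptor, the ligand-binding chain Ifngr1 was at 11.13, 11.25 and 11.22 in wild-type and 10.83, 10.72 and 10.88 in knock-out cells. Ifngr1 fell by 0.39 (SE 0.07, adjusted p = 0.0012), with no overlap of the arrays. Its signalling partner Ifngr2 did not pass (+0.13, −0.03 to 0.28).

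Among 8 transcription factors 4 rose, 3 fell and 1 did not pass. Irf9, the DNA-binding subunit of the complex that type I interferon activates, had the largest rise of the signalling genes. Its signal was 7.64, 7.51 and 7.67 on wild-type and 8.78, 8.63 and 8.85 on knock-out arrays. The groups lay well apart, 2.21-fold (log2 difference +1.14, SE 0.08, adjusted p = 1.2e-06). Irf9 lies on chromosome 14, where genes above background had a median difference of +0.40, and with each chromosome's median subtracted, an alternative chosen after the data were seen, the difference of Irf9 was +0.75 (adjusted p = 3.2e-05). Stat2, its partner in that complex, was at 9.13, 8.76 and 8.77 in wild-type and 9.42, 9.27 and 9.27 in knock-out cells and rose by 0.44 (SE 0.10, adjusted p = 0.0074). Wild-type replicate 1 came closest to the knock-out arrays. Irf3, a factor that kinases downstream of the RNA sensors activate, rose from 6.92 ± 0.0651 to 7.32 ± 0.03 (log2 difference +0.40, adjusted p = 0.00062). Irf7, which amplifies the synthesis of type I interferon, went from 5.67 ± 0.152, at background, to 6.04 ± 0.167 (log2 difference +0.37, adjusted p = 0.018). The call of Irf7 was lost without wild-type replicate 2 (adjusted p = 0.067), without knock-out replicate 1 (adjusted p = 0.064) and with chromosome medians subtracted (adjusted p = 0.053).

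Irf1, a factor that interferon gamma induces strongly, moved the other way. Its signal was 9.49, 9.27 and 9.45 in wild-type and 8.70, 8.49 and 8.61 in knock-out cells, so every knock-out array was lower, and it fell by 0.80 (SE 0.08, adjusted p = 2.9e-05). A further probe set of Irf1 was at background level on all arrays, at 5.36 to 5.45 in wild-type and 5.07 to 5.28 in knock-out cells. Irf5, a factor best known from myeloid cells, was at 6.47, 6.70 and 6.39 in wild-type and 5.57, 5.62 and 5.48, under background, in knock-out cells. It fell by 0.96 (SE 0.09, adjusted p = 1.2e-05), and the knock-out level under background limits how large this difference can appear. Irf8, a factor of macrophages, microglia and dendritic cells, fell by 0.44 (SE 0.08, adjusted p = 0.0027), but both of its means, 5.43 and 4.997, lay under background. Irf2, an antagonist of Irf1 at shared sites, did not pass (+0.17, adjusted p = 0.095). Usp18, a protease that removes ISG15 from proteins and dampens the type I receptor, was at 7.92, 7.63 and 8.001 in wild-type and 8.86, 8.34 and 8.57 in knock-out cells. Usp18 rose by 0.74 (SE 0.13, adjusted p = 0.0017), and replicate 2 was the lowest array of each genotype.

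**Figure D2:**
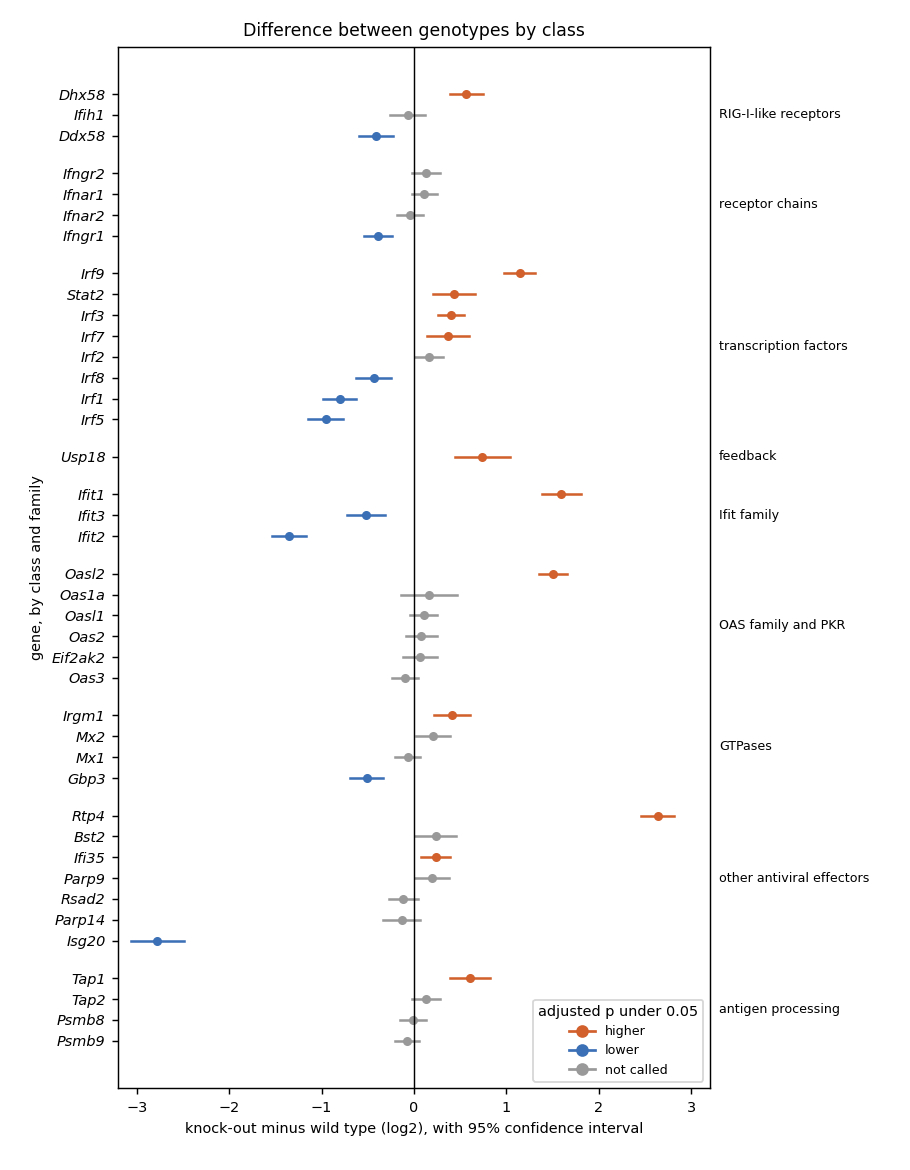
Difference between knock-out and wild-type cells (log2, x axis) of the 40 interferon response genes by family, with the 95% confidence interval from limma as a bar. The largest differences, Rtp4 (+2.64) and Isg20 (−2.78), point in opposite directions, as do Ifit1 and Ifit2.

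The IFIT proteins bind viral RNA and stop its translation, and the 3 genes of this family among the 44, close together on chromosome 19, differed in direction. Ifit1 was at 6.22, 6.15 and 6.34 in wild-type cells and at 8.04, 7.71 and 7.75 in knock-out cells. It rose 3.02-fold (log2 difference +1.59, SE 0.09, adjusted p = 4.7e-07). Ifit2 was at 9.55, 9.49 and 9.52 in wild-type and 8.36, 8.06 and 8.10 in knock-out cells, a 2.55-fold fall (log2 difference −1.35, SE 0.08, adjusted p = 6e-07). Ifit3, which binds and steadies IFIT1 in human cells, was at 8.71, 8.54 and 8.67 in wild-type and 8.32, 8.04 and 7.997 in knock-out cells. It fell by 0.52 (SE 0.09, adjusted p = 0.0015), and none of the 3 genes had overlapping arrays. The family members Ifit3b (−0.07, adjusted p = 0.69) and Ifit1bl2 (−0.13, adjusted p = 0.31), which lie between Ifit3 and Ifit1, were under background in both genotypes and did not pass.

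Lgi1, the deleted gene, lies on chromosome 19 as well, and 28 measured genes lie between Ifit1 and Lgi1. Of these 28, 18 were lower and none was higher in knock-out cells (limma; 64.3%, beside 31.6% of all genes called in either direction), with a median log2 difference of −0.43. None was called higher under the block on the replicate number either, and at an unadjusted p under 0.05 the count was 0 higher and 18 lower. With chromosome medians subtracted, 5 of them were called higher and 14 lower. Over the whole chromosome 220 of 675 genes were lower and 52 higher. On the side of the Ifit genes away from Lgi1, the nearest measured gene, Lipa, was lower too (−0.33, adjusted p = 0.0038). Farther out Ch25h, Fas and Stambpl1 were higher, by 1.89, 0.84 and 0.99, while Acta2 (+0.16) and Ankrd22 (+0.17) did not pass. With chromosome medians subtracted the log2 differences were +1.83 for Ifit1, −1.11 for Ifit2 and −0.29 for Ifit3, all still called (adjusted p = 1.6e-07, 2.9e-06 and 0.037). Lgi1 itself was under background in both genotypes (4.77 ± 0.168 and 4.55 ± 0.0211) and gave no check of the labels. Its log2 difference was −0.22 (adjusted p = 0.075), which passed under the block on the replicate number (0.046) and without wild-type replicate 1 (0.018).

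**Figure D3:**
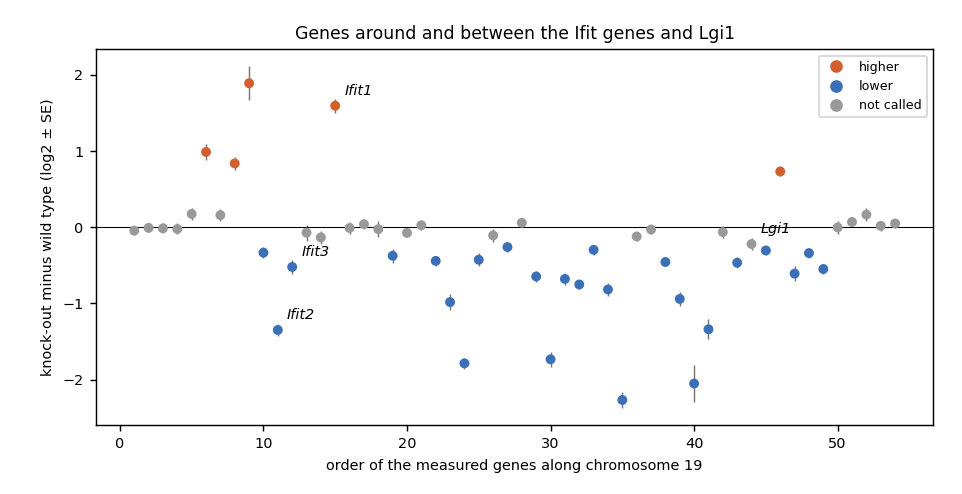
Difference between knock-out and wild-type cells (log2 ± SE, y axis) of measured genes in their order along chromosome 19, from 10 genes before Ifit2 to 10 genes after Lgi1. Ifit1 stands at +1.59, Ifit2 and Ifit3 are lower, and between Ifit1 and Lgi1 the called genes are all lower.

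The 44 genes include 5 of the oligoadenylate synthetase (OAS) family and PKR, and 1 of these 6 passed. Oasl2, a family member that ends in ubiquitin-like domains, was at 5.95, 6.02 and 6.08 in wild-type and 7.61, 7.46 and 7.50 in knock-out cells. This was a 2.84-fold rise (log2 difference +1.51, SE 0.07, adjusted p = 5.3e-08). Its direct neighbour Oasl1, which limits the translation of Irf7, had means of 5.92 ± 0.0378 and 6.02 ± 0.0948, with overlapping arrays (+0.10, adjusted p = 0.31). It passed with chromosome medians subtracted (+0.20, adjusted p = 0.045). Oas1a, Oas2 and Oas3, whose products activate RNase L, lay under background in both genotypes, between 4.64 and 5.31 on every array. Of the same family but outside the 44, Oas1b rose from 6.35 ± 0.0915 to 7.02 ± 0.158 (log2 difference +0.67, adjusted p = 0.0002), and Oas1c, under background, did not pass (+0.10, adjusted p = 0.32). Eif2ak2 encodes PKR, the kinase that halts translation, and was well above background at 9.35 to 9.57 in wild-type and 9.47 to 9.69 in knock-out cells. Its difference was +0.07 (95% confidence interval −0.12 to 0.25).

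Of the 4 GTPases measured among the 44 genes, 1 rose and 1 fell. Irgm1, which acts on autophagy and on vacuoles that hold pathogens, was at 9.17, 9.27 and 8.92 in wild-type and 9.55, 9.57 and 9.48 in knock-out cells and rose by 0.41 (SE 0.09, adjusted p = 0.0047). Gbp3, a guanylate-binding protein, was at 6.93, 6.87 and 7.12 in wild-type and 6.54, 6.40 and 6.44 in knock-out cells and fell by 0.51 (SE 0.08, adjusted p = 0.00056). Outside the 44, the guanylate-binding proteins Gbp4 (−1.46, adjusted p = 1.2e-06, with a knock-out mean under background), Gbp7 (−0.74, adjusted p = 0.0015) and Gbp9 fell as well. Gbp5, under background in both genotypes, was called higher (+0.22, adjusted p = 0.036) but not without wild-type replicate 1 or 3 or knock-out replicate 1 or 2, nor with the arrays centred (adjusted p up to 0.12 over the alternatives). Mx1 and Mx2, which are annotated as transcribed pseudogenes in the reference strain C57BL/6J, lay between 4.53 and 5.03 on every array, under background. Mx2 did not pass (+0.21, adjusted p = 0.097) but did once the replicate number was blocked (adjusted p = 0.028).

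The remaining antiviral effectors held both the largest rise and the largest fall among the 40 genes. Rtp4, an interferon-induced gene known also as a chaperone of taste and opioid receptors, was at 5.67, 5.61 and 5.59 in wild-type cells. In knock-out cells it was at 8.43, 8.20 and 8.15. The difference was 6.22-fold (log2 +2.64, SE 0.08, adjusted p = 2.8e-09), and the wild-type mean lay just under background, which limits this fold. Isg20, an exonuclease that degrades RNA, was at 10.26, 9.95 and 10.25 in wild-type and 7.42, 7.10 and 7.61 in knock-out cells. It fell 6.85-fold (log2 −2.78, SE 0.13, adjusted p = 7e-08), with both means above background. Ifi35, a partner of the transcription regulator NMI, rose by 0.23 (SE 0.07, adjusted p = 0.026), a call that was lost without any 1 of the arrays other than knock-out replicate 2 (adjusted p = 0.052 to 0.095).

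Bst2, or tetherin, which holds budding virions at the cell surface, was at 7.24, 7.15 and 7.03 in wild-type and 7.58, 7.34 and 7.19 in knock-out cells. The arrays overlapped, and the gene did not pass (+0.23, adjusted p = 0.11), although it did once the replicate number was blocked (adjusted p = 0.018) and without knock-out replicate 3 (adjusted p = 0.035). Parp9 (+0.20) and Parp14 (−0.13), ADP-ribosyltransferases of the interferon response, did not pass. Parp9 did pass when wild-type replicate 1 was left out (adjusted p = 0.047) and without knock-out replicate 2 (adjusted p = 0.043). Rsad2, or viperin, an inhibitor of viral polymerases that interferon induces strongly, stayed between 4.65 and 4.85 on every array, under background.

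Of the genes that prepare peptides for MHC class I, which lie side by side on chromosome 17, only Tap1 passed among the 4 measured. Tap1, a subunit of the peptide transporter, was at 7.29, 7.03 and 7.37 in wild-type and 7.86, 7.71 and 7.94 in knock-out cells. It rose by 0.61 (SE 0.10, adjusted p = 0.00075). Its partner Tap2 did not pass (+0.13, adjusted p = 0.19), except with chromosome medians subtracted (+0.24, adjusted p = 0.023). The immunoproteasome subunits Psmb8 (−0.01, 95% confidence interval −0.15 to 0.13) and Psmb9 (−0.08, −0.20 to 0.05) did not pass either.

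Within a genotype the interferon response genes tended to be high or low on the same arrays. Knock-out replicate 1 was the highest knock-out array for 26 of the 40 genes and the lowest for 1, and knock-out replicate 2 was the lowest for 27 and the highest for 3. Across all genes these arrays were highest for 33.9% and 32.3% and lowest for 32.9% and 32.3%. Among wild-type arrays replicate 2 was the lowest for 22 of the 40, against 32.5% of all genes. The 40 genes are therefore not independent readings of the difference between the genotypes. No test was made of this pattern, which was noticed after the values were seen.

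The interferons themselves were mostly at background. Of 15 measured interferon genes, 12 had both means under background, among them Ifnb1 (4.70 to 4.92 on all arrays) and Ifng (5.14 to 5.41). Ifnz (+0.42, adjusted p = 0.0074) and Ifnab (+0.33, adjusted p = 0.026) were called higher, and the mean of Ifnab was under background in both genotypes. Ifnab did not pass when wild-type replicate 1 or 3 or knock-out replicate 1 or 3 was left out (adjusted p = 0.073 to 0.096). Ifnl2, above background, was at 7.27, 7.36 and 7.32 in wild-type and 7.19, 7.03 and 6.55 in knock-out cells and just missed the threshold (−0.39, adjusted p = 0.053). It was called lower under the block on the replicate number (0.027) and under 6 further alternatives, with an adjusted p between 0.012 and 0.13 in all that were run. Ifna2, under background, was called lower under the block alone (−0.25, adjusted p = 0.032), so that 2 interferon genes were higher and 2 lower under the block. Probe sets of the interferon alpha and lambda families can bind RNA of near copies, so single genes of these families are uncertain. The same holds for Ifnz, whose symbol stands together with others on 18 further probe sets.

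Further genes of the pathway, listed by role, were also called in both directions. Of 115 measured, 19 were higher and 24 lower (37.4% called, beside 31.6% of all genes), with a median log2 difference of 0.0037. Under the block on the replicate number 23 were higher and 28 lower, and 35.1% of all genes were called. Among 19 other sensors and adaptors, 2 rose and 3 fell. These were the kinase Ikbke (+0.53, adjusted p = 0.0015) and Tlr7, an endosomal receptor of single-stranded RNA whose means were both under background (+0.27, adjusted p = 0.013), and on the lower side Tlr3, the endosomal receptor of double-stranded RNA (−0.46, adjusted p = 0.0011), the nucleic acid sensor Zbp1 (−0.38) and Trim25, the ubiquitin ligase that activates RIG-I (−0.29). The call of Trim25 was lost without wild-type replicate 1 or 3, without knock-out replicate 2 or 3 (adjusted p = 0.061 to 0.12) and with chromosome medians subtracted (0.056), that of Zbp1 without knock-out replicate 3 (0.051) and that of Tlr7 without knock-out replicate 2 (0.050). Under the block the sensors and adaptors were 5 higher and 3 lower, since Tmem173, or STING (+0.26, adjusted p = 0.012, 0.28 without the block), Mb21d1, or cGAS (+0.28, 0.035 and 0.064), and Myd88 (+0.22, 0.024 and 0.084) passed too. Among 16 other signalling genes 2 rose and 6 fell, of which the kinase Jak2, which serves the interferon gamma receptor, fell the most (from 9.70 to 8.92, log2 difference −0.78, adjusted p = 1.1e-05). Jak2 lies on chromosome 19, and with chromosome medians subtracted its difference was −0.54 and still called. The inhibitors Socs3 (−0.47), Pias1 (−0.41) and Ptpn2 (−0.40) fell too, and with chromosome medians subtracted Pias1 did not pass (−0.24, adjusted p = 0.061). Inhibitors did not all fall, since Socs1 rose from a wild-type mean under background (+0.27, adjusted p = 0.010). The phosphatase genes Ptpn1 (+0.18), Ptpn6 (−0.01) and Ptpn11 (−0.07) did not pass.

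Of 48 other effectors, 11 rose and 11 fell, with 5 at least 2-fold in each direction. Ifi27 had the largest rise, from 5.66, at background, to 9.45 (log2 difference +3.79, adjusted p = 1.1e-09), and Lgals3bp, a secreted glycoprotein, rose by 2.57 (adjusted p = 1.1e-07). Gbp9, a guanylate-binding protein, fell by 2.95 (adjusted p = 5e-09). Ifi205, a member of the interferon-inducible p200 family, fell by 2.76 (adjusted p = 2.5e-07), and the knock-out means of both were under background. Genes of these families have near copies that the probes may not separate. Among 17 other genes of antigen presentation 2 rose and 4 fell (2 and 6 under the block), with Tapbp, or tapasin (−0.61), the immunoproteasome subunit Psmb10 (−0.53) and the peptide-trimming protease Erap1 (−0.47) lower and the proteasome activator subunit Psme1 (+0.39) higher. All had an adjusted p of at most 0.0232. Psme1, on chromosome 14, did not pass without wild-type replicate 2 or knock-out replicate 1 or 3 (adjusted p = 0.063 to 0.091) or with chromosome medians subtracted (adjusted p = 0.96).

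**Figure D4:**
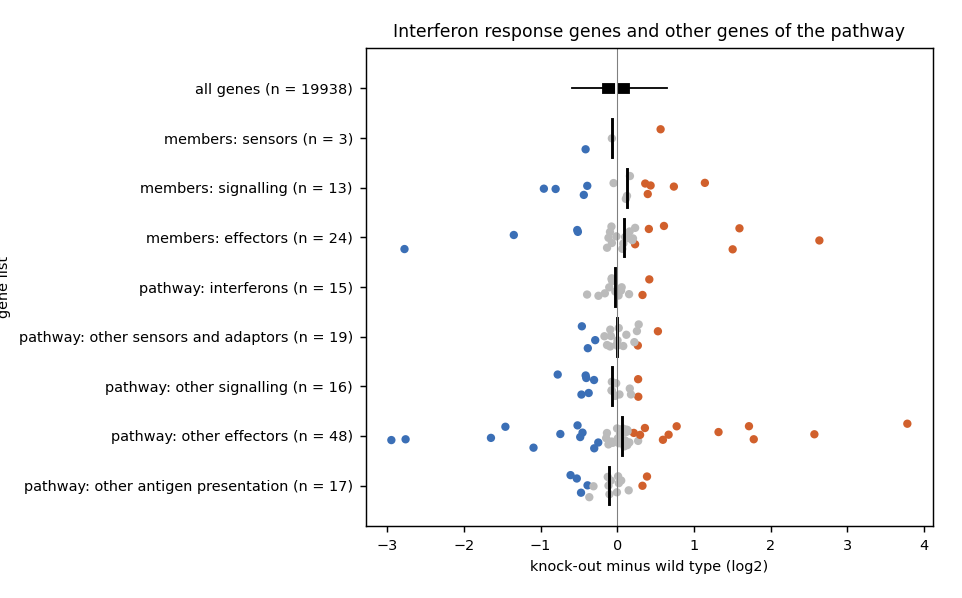
Difference between knock-out and wild-type cells (log2, x axis) for each gene (1 dot) of the classes of interferon response genes and of further pathway lists, with orange for higher, blue for lower, grey for not called and a vertical bar for each median. The top row shows all 19938 genes as the 5th to 95th percentile (thin line) and the quartiles (thick line). Every class but the interferons holds called genes on both sides of 0.

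The arrays of the genotypes also differed in some markers of cell types. Of the measured markers of fibroblasts and meninges 91.7% were called, beside 31.6% of all genes. The shares were nearer to that of all genes for neural progenitors (40%), endothelial cells (40%), astrocytes (37.5%) and neurons (30%). For microglia and leukocytes the share was 13.3%. Median log2 signals of the 6 arrays were 6.36 to 6.41 over all probe sets. Of 12 markers of fibroblasts and meninges 11 were higher in knock-out cells, and the mean log2 level of the list was 7.16 to 7.19 on wild-type and 9.69 to 9.76 on knock-out arrays. Of 10 neural progenitor markers 4 were lower (Sox2, Nes, Pax6 and Fabp7), and the list was at 8.21 to 8.28 and 6.97 to 6.99. Sox2 and Pax6, which define neural progenitors, had knock-out means under background, while Nes and Vim stayed above it in both genotypes. The other 6 progenitor markers did not pass, among them Sox1 (5.72 and 5.59), and the median log2 difference of the list was −0.11. Msi1 (+0.31) was called higher under the block on the replicate number (adjusted p = 0.019). Of 15 measured markers of microglia and leukocytes, to which Irf5 and Irf8 are also known to belong, 12 had both means under background, including Ptprc, Aif1, Csf1r, Itgam and Cx3cr1, and the list was at 5.21 to 5.23 and 5.29 to 5.33. Of the remaining 3, Tmem119 was higher in knock-out cells (from 6.67 to 8.79, adjusted p = 2.5e-08) and Trem2 lower (from 6.03 to 5.79, adjusted p = 0.018). The call of Trem2 was lost without wild-type replicate 2 or knock-out replicate 3 and with chromosome medians subtracted (adjusted p up to 0.15 over the alternatives). The median log2 difference of the microglia and leukocyte list was −0.02. Of 10 endothelial markers 3 were higher and 1 lower, and the list was at 4.95 to 5.09 and 5.74 to 5.78. Erg (5.37 to 9.97) and Tek (5.07 to 8.21) rose from under background, but the median log2 difference of the list was +0.03. Both means were under background for 7 of the 10. Among these were Pecam1, Cdh5 and Cldn5, which did not pass, and Kdr, which was the lower one (−0.44). The call of Kdr was lost without knock-out replicate 1 or 3 (adjusted p up to 0.057). The 8 astrocyte markers were at 6.44 and 6.14 to 6.18, with a median log2 difference of −0.02. Of these 8, 2 were lower, Aqp4 (7.46 and 5.36) and Slc1a3 (−0.41), and 1 was higher, Slc1a2 (+0.49). Gja1 did not pass (−0.30, adjusted p = 0.068) but was called lower under the block on the replicate number (0.011) and under further alternatives. Both means were under background for 5 of the 8 astrocyte markers, including Slc1a2 and Gfap. The 10 neuronal markers were at 5.79 to 5.92 and 5.69 to 5.72. Map2 was higher (+0.90), while Syn1 (7.28 and 5.68) and Gap43 (−0.50) were lower. Under the block on the replicate number 1 neuronal marker was higher and 4 were lower. Both means were under background for 7 of these 10, including Gap43. Of 9 measured genes of chromosome Y, 4 were lower in knock-out cells and 0 were higher. The 6 of them with a mean over all arrays above background had a median log2 difference of −2.76. A difference in the sex or origin of the cells was not tested and cannot be told apart from the genotype. The part of these differences in the values of the interferon response genes was not tested.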

How the data were processed

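Total RNA of 3 wild-type and 3 knock-out samples was hybridized to 1-colour arrays. The deposited log2 values, 1 per probe set and array (35556 probe sets), reached GEO from the authors with no account, in the sources used here, of how arrays were scaled. The submitters' processing notes name Partek. GEO's platform annotation gave 1 symbol to 21789 probe sets, several to 1621 and none to 12146.

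The comparison of genotypes used lmFit and eBayes of limma 3.58.1 (R 4.3.3; no trend, 4 residual degrees of freedom before moderation) over 19938 genes, with Benjamini-Hochberg adjustment over all of them. The genes and lists were chosen with earlier results of these data known. Of each further pathway list the text names the 4 called genes with the largest difference and, besides these, Ifnb1, Ifng, Ifnl2, Ifna2, Tlr7, Tmem173, Mb21d1, Myd88, Socs1, Ptpn1, Ptpn6, Ptpn11, Ifit3b, Ifit1bl2, Oas1b, Oas1c, Gbp4, Gbp5, Gbp7, Lipa, Ch25h, Fas, Acta2, Stambpl1, Ankrd22 and the cell-type markers, chosen after their values were seen. Gene order and promoters come from RefSeq (GRCm38.p6). For the array annotation the sources used here give no build. The number of arrays limits the precision. The steps were tested on simulated data.

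Both genotypes carry the replicate numbers 1 to 3. Once genotype means were removed, arrays with the same number correlated at 0.19 to 0.29 over genes and others at −0.18 to −0.0047. Deviations from a genotype mean cancel out, so these correlations are not independent of each other. The numbers may pair the samples, but the labels do not say so and it was not tested. The main fit leaves such a pairing out, and the block is an alternative. The others were quantile normalization, median centring, a trend with robust settings, a filter at the median level, averaged probe sets, a threshold of 0.01, each array left out and, added after the data were seen, subtraction of chromosome medians.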

Additional observations from a re-analysis of the deposited data

How the results depend on the processing

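Of the 21 called interferon response genes, 19 kept their call and direction under every alternative in which they were tested, Irf7 and Ifi35 being the exceptions, and no gene of the 40 reversed. The counts were 10 to 14 higher and 7 to 9 lower over all alternatives. With the replicate number as a block, 14 were higher and 9 lower, with Bst2 and Mx2 called in addition and no call lost. Irf2 passed without wild type replicate 3 (adjusted p = 0.049). At a threshold of 0.01 Irf7 and Ifi35 were not called. Background at the median of the receptor genes, in place of their 95th percentile, left 2 genes under it in both genotypes in place of 7, and the 99th percentile put 10 under it. A longer form of the ISRE core was found for 8 genes in place of 16. With chromosome medians subtracted, 5 genes between Ifit1 and Lgi1 were called higher in place of 0, and the difference of Psme1, a further pathway gene, became −0.0085 in place of +0.39. No scaling moved the median of all genes by over 0.1. The filter at the median level left 29 of the 40 genes. Small differences of dim genes cannot be measured on these arrays.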
